A study of Mus musculus with 6 samples.

Results

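The genes described here build the sugar chain that the endoplasmic reticulum (ER) attaches to asparagines of new glycoproteins, transfer it, and trim and inspect it. They were taken from the deposited table by symbol, as the genes of dolichol supply, of the ALG enzymes and dolichol-linked sugar donors, of the oligosaccharyltransferase, and of the ER glucosidases and folding sensors. All 37 were found among 34866 gene identifiers, and all 37 passed the low-count filter that left 14017 genes tested. The RNA came from antral gastric mucosa of mice with both copies of Muc6 (Muc6 +/+, 3 libraries, wild type 1, 2 and 3) and of Muc6 -/- mice (3 libraries, knockout 1, 2 and 3). Muc6 encodes a gel-forming mucin of the antral glands. The labels state no treatment, strain, age, sex or pooling of animals, and how the Muc6 allele was made is not stated in them either. The series is titled for a link from faulty glycosylation through Golgi stress to stomach tumors.

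N-linked glycosylation starts on dolichol phosphate, a long lipid in the ER membrane. Sugars are added one by one, first on the cytosolic face with nucleotide sugars and then, after the lipid-linked chain is flipped, on the lumenal face with mannose and glucose carried by dolichol phosphate. The oligosaccharyltransferase moves the finished chain to the protein, the glucosidases remove its glucoses, and the UDP-glucose glycoprotein glucosyltransferases put a glucose back on misfolded glycoproteins so that calnexin and calreticulin hold them longer. Mucous cells of the stomach secrete large amounts of glycoprotein, and mucins carry N-glycans beside their far more numerous O-glycans.

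Levels are given in CPM, counts per 1e6 of the composition-scaled (TMM) library size, with mean ± SD where a genotype is summarised (SD, n = 3). A log2 fold change above 0 means more RNA in the knockout. Adjusted p values are from edgeR's quasi-likelihood test with Benjamini-Hochberg adjustment over the 14017 genes tested, called at a false discovery rate of 0.05. SE is an approximate standard error of the log2 fold change, its size divided by the square root of that test's F statistic. Total estimated counts were 19839799 to 21354029 per library. Muc6 itself had 396, 403 and 510 CPM in the 3 wild-type libraries and 0.0425, 0 and 0 CPM in the knockout. The Y-linked gene Ddx3y was at 0.058 to 0.326 CPM in the wild type and 39.3 to 41.1 CPM in the knockout, so sex and genotype cannot be told apart in any difference below. The antral hormone gastrin (Gast) ran from 762 to 1196 CPM in the wild-type libraries and from 9.52 to 24.8 CPM in the knockout, and it fell. Pit cell markers fell in 6 of 6, Muc5ac among them from 5740 to 6279 CPM down to 270 to 1274 CPM, and their summed level was 157784 to 182078 CPM against 37410 to 47911 CPM. Of the antral gland genes Tff2, Aqp5 and Pdx1 rose. Of 6 genes of the gastric body 4 fell (Atp4a, Atp4b, Kcne2 and Pgc), with a summed level of 4315 to 5835 CPM against 144 to 1181 CPM. Most of that sum was Pgc, at 3917 to 5348 CPM in the wild type and 132 to 1103 CPM in the knockout. Wild type 1, 2 and 3 differed in Atp4a (7.28, 84.8 and 123 CPM), Atp4b (6.41, 143 and 140 CPM) and Kcne2 (0.761, 11.4 and 14.6 CPM). Of 6 enterocyte genes Alpi, Sis and Mttp rose and Fabp2 fell, and Alpi was at 19.2 to 29.6 CPM against 308 to 1309 CPM. Wild type 1 and knockout 1 had the lowest summed level of the 6 listed smooth muscle and fibroblast genes. That sum ran from 132 to 2051 CPM in the wild type and from 319 to 887 CPM in the knockout. Knockout 1 had the highest Col1a1 of the 6 libraries (67.3 CPM), and more Dcn than knockout 3 (119 against 103 CPM). Of 5 tested myeloid genes Ptprc alone was called, from 1.25 to 5.16 CPM up to 8.02 to 14.6 CPM. S100a8 was at 60.0, 0.706 and 0.654 CPM in knockout 1, 2 and 3. Plasma cell genes were near 0 in the wild type except Sdc1, which other cells express too (161 to 227 CPM against 280 to 370 CPM). Igha, Igkc and Jchain were at 0 to 0.435 CPM in each wild-type library and at 40 to 406 CPM in each knockout library, and the summed level of the 7 listed genes was 162 to 229 CPM against 555 to 1014 CPM. The part of these cell types in the results below was not tested. In bulk tissue, fewer cells of a type and less RNA per cell cannot be told apart.

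Of the 37 genes, 7 rose, 6 fell and 24 did not pass, which is 35.1% called. Among all 14017 tested genes 38.4% were called, 19.3% higher and 19.2% lower, so the share of called genes lay near the background. With limma-voom, another test of the same counts, 9 rose and 6 fell, at a background of 37.7% called. The median log2 fold change of the 37 genes was 0.11, against 0.02 for all tested genes. By step of the pathway, the counts were as follows, and no test compared the steps. Of the 5 trimming and sensing genes 4 rose, of the 6 genes of the cytosolic face 3 rose, of the 5 genes of dolichol-linked sugar donors 3 fell, and of the 10 oligosaccharyltransferase genes 3 fell. None of the 5 dolichol genes, the 3 lumenal mannosyltransferase genes or the 3 lumenal glucosyltransferase genes passed. The libraries of the genotypes did not overlap for 24 of the 37 genes (64.9%, against 54.8% of all tested genes). Without wild type 1, 14 of the 37 genes were higher and 7 lower, at a background of 41.4% called. Without knockout 2, 5 were higher and 3 lower, at a background of 24.6%. Without both libraries numbered 1, 13 were higher and 6 lower, at a background of 48%. The background thus moved in the same direction as the number of genes called, though not by the same amount. Without wild type 1, rises went from 7 to 14 of the 37 genes. Those of all tested genes went from 2699 of 14017 to 3045 of 14530.

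**Figure D1:**
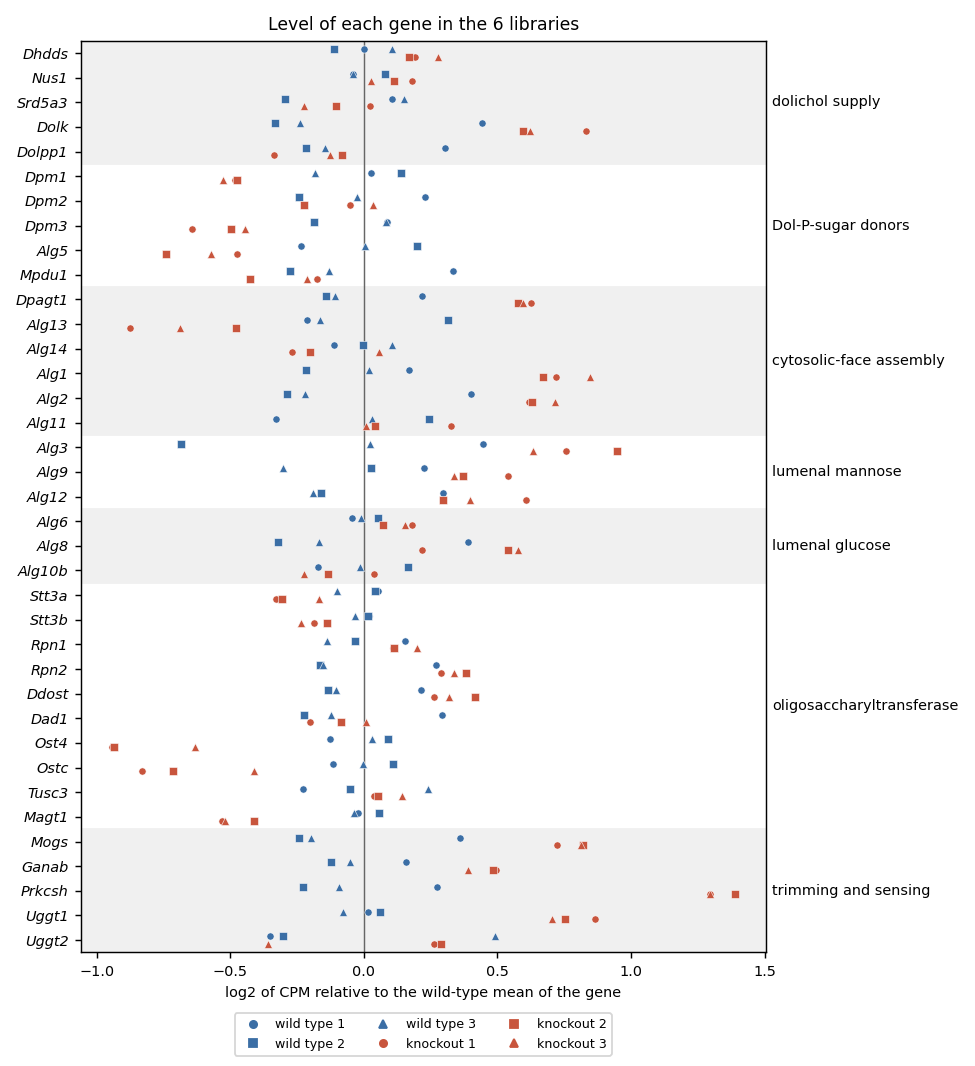
Level of each of the 37 genes in the 6 libraries, as log2 of its CPM relative to the wild-type mean of that gene, with wild type in blue and knockout in red and the marker shape giving the replicate number. Prkcsh, Mogs and Uggt1 lay to the right of all wild-type libraries in each knockout library, and Ost4, Ostc and Magt1 lay to the left.

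Directions depend on the scaling. Dividing by total counts, with no composition factor, moved the median of all tested genes by 0.417 on the log2 scale, and 84.0% of called genes were then higher, against 50.1% with composition scaling. With total counts 20 of the 37 genes were higher and 1 was lower, Ost4, at a background of 48.7% called (40.9% higher and 7.78% lower). The 7 genes that rose were higher under both scalings. Of the 6 that fell, Ost4 alone was still called lower with total counts (-0.41, adjusted p = 0.0275), while Dpm1, Dpm3, Alg5, Ostc and Magt1 kept a negative sign at -0.08, -0.11, -0.18, -0.22 and -0.07 and were not called (adjusted p 0.21 to 0.635). Falls below are therefore falls relative to the composition-scaled median of all genes.

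**Figure D2:**
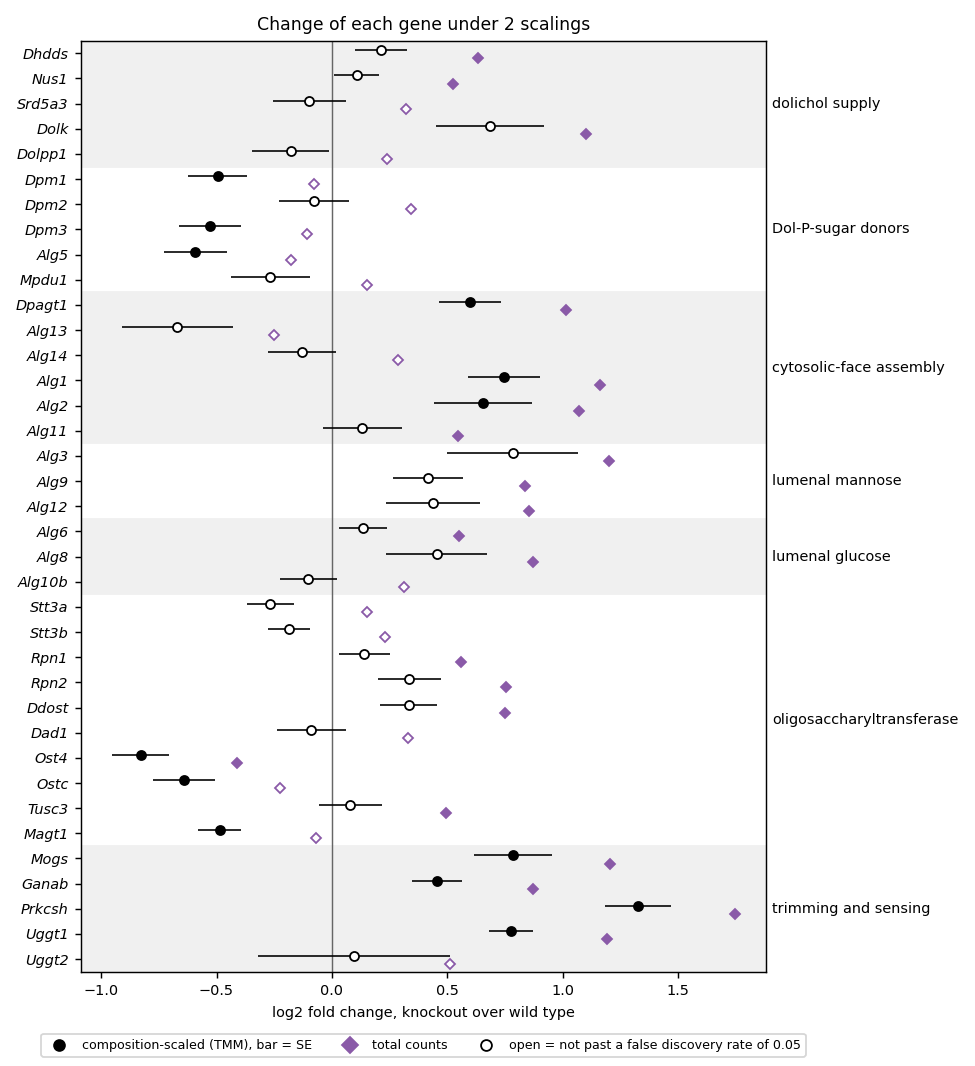
Log2 fold change of each gene, knockout over wild type, with composition scaling (circles, bars are the SE) and with total counts (diamonds), where filled symbols passed a false discovery rate of 0.05. All diamonds lie to the right of their circles, and Ost4 is the filled diamond below 0.

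Promoter windows and a coding sequence are shown first, since the changes below set genes of one pathway against each other. RefSeq promoter windows (GRCm38.p6) were matched for 32 of the 37 genes, in 33 windows, and the 250 bases upstream of each start were searched on both strands. The letters searched were ERSE, the ER stress response element (CCAAT, any 9 bases, then CCACG), ERSE-II (ATTGG, any base, then CCACG), UPRE (TGACGTGG), GASE, the Golgi stress element bound by TFE3 (ACGTGGC), and CCAAT alone, the core of ERSE. UPRE and GASE share the letters ACGTGG, and ERSE holds CCAAT. ERSE was found upstream of Alg12 only (3.03% of the 33 windows, against 0.113% of all 32851 windows), GASE upstream of Alg6 only (3.03% against 2.02%), and ERSE-II and UPRE upstream of none (0.0304% and 0.563% of all windows). CCAAT was found in 16 of the 33 windows, 48.5% against 33.8% of all. None of the 10 windows of called genes, 5 of genes that rose and 5 of genes that fell, held ERSE, ERSE-II, UPRE or GASE, which says only that these letters are not in these windows.

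The windows with ERSE and GASE are shown, with that of Ganab, a gene that rose and holds 2 CCAAT boxes. The windows of Uggt1, Mogs, Prkcsh and Alg1, which also rose, held no CCAAT. Among genes that fell, that of Magt1 held 4 and that of Dpm1 held 1, and those of Alg5, Dpm3 and Ost4 held none. Capitals mark ERSE (the long run) and CCAAT in Alg12, GASE in Alg6 and CCAAT in Ganab, and the strand is that of the gene. The windows are chr15:88819319-88819568 (minus strand) for Alg12, chr4:99715380-99715629 (plus strand) for Alg6 and chr19:8897889-8898056 (plus strand) for Ganab, of which the bases farther upstream, in an exon of Ints5, were left out.
Alg12: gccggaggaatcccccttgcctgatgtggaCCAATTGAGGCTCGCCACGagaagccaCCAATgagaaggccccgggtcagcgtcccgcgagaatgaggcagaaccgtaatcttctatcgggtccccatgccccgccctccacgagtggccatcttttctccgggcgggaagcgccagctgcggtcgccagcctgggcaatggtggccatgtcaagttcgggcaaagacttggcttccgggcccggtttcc
Alg6: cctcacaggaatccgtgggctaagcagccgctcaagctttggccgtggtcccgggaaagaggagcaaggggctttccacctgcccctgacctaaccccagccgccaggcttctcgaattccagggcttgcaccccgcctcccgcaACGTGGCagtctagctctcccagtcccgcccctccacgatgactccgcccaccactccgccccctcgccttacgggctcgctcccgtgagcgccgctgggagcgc
Ganab: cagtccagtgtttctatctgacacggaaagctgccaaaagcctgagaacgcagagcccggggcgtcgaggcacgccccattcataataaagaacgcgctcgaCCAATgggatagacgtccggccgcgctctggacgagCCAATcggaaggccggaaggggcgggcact

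The coding sequence of Ost4, the gene with the largest fall, is shown because it shows how short this subunit is. Its 37 codons, without the stop codon, lie in 1 exon at chr5:30907425-30907535 (mm10, minus strand, bases from the GENCODE M21 transcripts), with the start codon in capitals.
Ost4: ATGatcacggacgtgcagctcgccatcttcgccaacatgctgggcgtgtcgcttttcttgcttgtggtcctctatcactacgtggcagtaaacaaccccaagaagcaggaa

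Of the genes that trim and inspect the transferred chain 4 of 5 rose, beside 19.3% higher of all tested genes. Prkcsh, the non-catalytic subunit of glucosidase II that holds it in the ER, had 46.9, 33.2 and 36.5 CPM in the wild type and 95.4, 102 and 95.5 CPM in the knockout, in the order of the library numbers. The lowest knockout library was above the highest wild-type library by a wide margin, and the log2 fold change of 1.33 (SE 0.14, adjusted p = 7.46e-04) was the largest of the 37 genes. Ganab, the catalytic subunit of the same enzyme, was at 133, 110 and 116 CPM in the wild type and at 168, 167 and 157 CPM in the knockout. The genotypes did not overlap, and the rise was 0.46 (SE 0.11, adjusted p = 0.0147), which was not called without wild type 2, wild type 3 or knockout 2 (adjusted p 0.0549 to 0.06). Mogs, glucosidase I, which removes the outermost glucose, was at 51.1, 33.6 and 34.7 CPM in the wild type and at 65.7, 70.3 and 69.9 CPM in the knockout. Wild type 1 was the highest wild-type library for Mogs, Ganab and Prkcsh, and each stayed below the knockout. Mogs rose by 0.79 (SE 0.17, adjusted p = 0.0101).

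Uggt1, the folding sensor that reglucosylates misfolded glycoproteins, was at 64.1, 66.1 and 60.1 CPM in the wild type and at 116, 107 and 103 CPM in the knockout, with little spread within a genotype. It rose by 0.78 (SE 0.10, adjusted p = 0.0012). Its paralog Uggt2 was at 1.36, 1.41 and 2.44 CPM in the wild type and at 2.08, 2.12 and 1.35 CPM in the knockout. These values overlapped, and the log2 fold change of 0.10 had an SE of 0.42 (adjusted p = 0.873), so a change of the size of that of Uggt1 was not detectable at this depth. Per kilobase of transcript, the level of Uggt1 was 7.02 CPM in the wild type and that of Uggt2 0.269 CPM.

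Genes of the first steps, on the cytosolic face of the ER, rose in 3 of 6, beside 19.3% higher of all tested genes. Dpagt1, which starts the chain by placing N-acetylglucosamine phosphate on dolichol phosphate and is the target of tunicamycin, was at 19.4, 15.1 and 15.5 CPM in the wild type and at 25.7, 24.9 and 25.2 CPM in the knockout. The 3 knockout libraries were nearly equal and above all wild-type libraries, with a rise of 0.60 (SE 0.13, adjusted p = 0.0117). Alg1, which adds the first mannose, was at 10.4, 7.99 and 9.4 CPM in the wild type and at 15.3, 14.8 and 16.7 CPM in the knockout, a rise of 0.75 (SE 0.16, adjusted p = 0.00916). Its exons share 472 bases with Eef2kmt on the other strand, a gene at 13.9 to 21.1 CPM in all libraries with a log2 fold change of -0.06. Alg2, which adds the following mannoses, was at 11.5, 7.14 and 7.48 CPM in the wild type and at 13.4, 13.5 and 14.3 CPM in the knockout. Wild type 1 came close to the knockout, and the rise of 0.65 (SE 0.21, adjusted p = 0.0444) was the call nearest the threshold. It was not called without wild type 2, wild type 3 or any 1 knockout library (adjusted p 0.0809 to 0.136).

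The remaining genes of the cytosolic face did not pass. Alg13 and Alg14 form the enzyme that adds the second N-acetylglucosamine, Alg13 as the catalytic subunit and Alg14 as its membrane anchor. Alg13 was at 6.79, 9.79 and 7.02 CPM in the wild type and at 4.29, 5.65 and 4.88 CPM in the knockout, without overlap, at a log2 fold change of -0.67 (SE 0.24, adjusted p = 0.0612), and it was called without wild type 1 (adjusted p = 0.0473). Alg14 was at 13.6, 14.7 and 15.9 CPM in the wild type and at 12.2, 12.8 and 15.4 CPM in the knockout, which overlapped (-0.13, SE 0.15, adjusted p = 0.513). Alg11, which adds the last mannoses on this face, had a log2 fold change of 0.13 (SE 0.17, adjusted p = 0.568).

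Alg13 and Magt1 are the X-linked genes among the 37, and both had lower values in the knockout libraries, which carry Y-linked transcripts. Of 454 tested X-linked genes, 131 were lower and 41 higher (28.9% lower, median log2 fold change -0.36), against 18.8% lower and a median of 0.03 for 13516 autosomal genes. For these genes the sex of the libraries and the genotype cannot be told apart.

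The genes that make or use dolichol-linked mannose and glucose had log2 fold changes below 0 in 5 of 5 with composition scaling and in 3 of 5 with total counts, where Dpm2 and Mpdu1 were above 0. With composition scaling 3 of them fell, beside 19.2% lower of all tested genes. Alg5, which makes dolichol phosphate glucose, was at 62.0, 83.9 and 73.1 CPM in the wild type and at 52.6, 43.7 and 49.1 CPM in the knockout. The groups did not overlap, and the fall was 0.59 on the log2 scale (log2 fold change -0.59, SE 0.14, adjusted p = 0.0133), which was not called without knockout 2 (adjusted p = 0.0569). Dpm1, the catalytic subunit of dolichol phosphate mannose synthase, was at 23.4, 25.3 and 20.2 CPM in the wild type and at 16.4, 16.5 and 15.9 CPM in the knockout (-0.49, SE 0.13, adjusted p = 0.0193). Leaving out any of wild type 2, knockout 2 and knockout 3 ended the call (adjusted p 0.0664 to 0.0746). Dpm1 shares 895 exon bases on its own strand with Gm20716, which was at 74.9 to 80.1 CPM in the wild type and 60.7 to 63.2 CPM in the knockout, so the level of Dpm1 is uncertain.

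Dpm3, which tethers Dpm1 to the ER membrane, was at 22.7, 18.8 and 22.6 CPM in the wild type and at 13.7, 15.1 and 15.7 CPM in the knockout (-0.53, SE 0.13, adjusted p = 0.019). The groups did not overlap, and leaving out wild type 3, knockout 1 or knockout 2 ended the call (adjusted p 0.0548 to 0.0633). Dpm2, the regulatory subunit of the same synthase, was at 19.9 to 27.5 CPM in the wild type and 20.1 to 24.1 CPM in the knockout (-0.08, SE 0.15, adjusted p = 0.718). Mpdu1, needed for the use of dolichol-linked mannose and glucose, was at 40.2 to 61.2 CPM and 36.2 to 43.0 CPM (-0.27, SE 0.17, adjusted p = 0.252). Both overlapped between the genotypes.

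No gene of dolichol supply passed in the main fit. Dhdds and Nus1 are the subunits of the cis-prenyltransferase that builds the lipid chain. Dhdds was at 22.3, 20.6 and 24.0 CPM in the wild type and at 25.4, 25.1 and 27 CPM in the knockout, without overlap but with a difference too small to pass (0.21, SE 0.11, adjusted p = 0.171). Nus1 was at 152, 165 and 152 CPM in the wild type and at 177, 169 and 159 CPM in the knockout (0.11, SE 0.10, adjusted p = 0.411). Dolk, the kinase that phosphorylates dolichol, was the gene nearest the threshold among those that did not pass, at 10.9, 6.36 and 6.79 CPM in the wild type and 14.2, 12.1 and 12.3 CPM in the knockout (0.69, SE 0.24, adjusted p = 0.0531). Wild type 1 lay between the other wild-type libraries and the knockout, and without it Dolk was called at 0.96 (adjusted p = 0.00577). Dolk was called higher in 8 of 18 other settings, among them DESeq2 and limma-voom, which are other tests (adjusted p = 0.0415 and 0.0366). Srd5a3, a reductase of dolichol synthesis, had a log2 fold change of -0.10 (SE 0.16). Dolpp1, which removes a phosphate from used dolichol pyrophosphate, had a log2 fold change of -0.18 (SE 0.17).

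The enzymes that finish the chain in the ER lumen had log2 fold changes above 0 in 5 of 6 with composition scaling and in 6 of 6 with total counts. In the main fit, which used composition scaling, none passed. Alg3, which adds the first lumenal mannose, was at 9.73, 4.44 and 7.25 CPM in the wild type and at 12.1, 13.8 and 11.1 CPM in the knockout (0.78, SE 0.28, adjusted p = 0.0624). The wild-type libraries were widely spread and did not reach the knockout. Alg3 shares 143 exon bases with Eef1akmt4 on the other strand. That gene was at 4.76 to 5.17 CPM in the wild type and 6.12 to 8.50 CPM in the knockout (log2 fold change 0.60). Alg9 and Alg12, the other mannosyltransferases, had log2 fold changes of 0.42 (SE 0.15, adjusted p = 0.0636) and 0.44 (SE 0.20, adjusted p = 0.126). Alg9 shares 500 exon bases with 1110032A03Rik on the other strand, a gene with a log2 fold change of -1.02. Of the glucosyltransferases, Alg6 was at 24.3 to 26.0 CPM in the wild type and 26.3 to 28.4 CPM in the knockout (0.14, SE 0.10), Alg8 at 8.55 to 14 CPM and 12.4 to 16.0 CPM (0.45, SE 0.22), and Alg10b at 60.3 to 76.3 CPM and 58.3 to 69.8 CPM (-0.10, SE 0.12). Without wild type 1, Alg3, Alg9, Alg12 and Alg8 were called higher (adjusted p 0.0149 to 0.0396). Alg3 was also called higher with DESeq2 and limma-voom (adjusted p = 0.0394 and 0.0400), and Alg9 with upper quartile factors (adjusted p = 0.0448). With the trend over transcript GC content removed, Alg6 and Alg10b were called higher (0.63 and 0.37, adjusted p = 0.0061 and 0.0275).

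Alg12 and Creld2, an ER stress gene that encodes a secreted ER protein, stand head to head with 327 bases between their annotated exons, and the ERSE printed above lies in that stretch. Alg12 was at 9.18, 6.69 and 6.55 CPM in the wild type and at 11.4, 9.18 and 9.86 CPM in the knockout. Wild type 1 and knockout 2 were nearly equal (9.182 and 9.184 CPM), and the genotypes did not overlap. Creld2 was at 49.8, 42.4 and 43.3 CPM in the wild type and at 73.6, 97.2 and 103 CPM in the knockout, without overlap. It rose by 1.02 (SE 0.15, adjusted p = 0.00222). Creld2 was chosen after its values were seen, and the difference between both changes was not tested.

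Genes of the oligosaccharyltransferase, the complex that transfers the finished chain, split by subunit. The small subunits Ost4 and Ostc and the oxidoreductase subunit Magt1 fell, and the other 7 of 10 did not pass. Of all tested genes 19.2% were lower. Ost4, a small membrane subunit that stabilizes the catalytic subunit, was at 108, 126 and 121 CPM in the wild type and at 61.6, 61.9 and 76.3 CPM in the knockout. The highest knockout library was well below the lowest wild-type library, at a log2 fold change of -0.83 (SE 0.12, adjusted p = 0.00238). Ost4 shares 677 exon bases with Agbl5 on the other strand, which was at 3.07 to 5.06 CPM in all libraries. Ostc, which joins the STT3A form of the complex to the protein channel, was at 189, 220 and 204 CPM in the wild type and at 115, 124 and 154 CPM in the knockout (-0.64, SE 0.13, adjusted p = 0.00923). Magt1, a subunit of the STT3B form, was at 146, 155 and 145 CPM in the wild type and at 103, 112 and 103 CPM in the knockout (-0.49, SE 0.09, adjusted p = 0.00625). Both were lower in each knockout library than in any wild-type library. With the trend of each library over transcript GC content removed, Magt1 was at -0.004 and not called (adjusted p = 0.981), and Ost4 and Ostc were called lower (-0.87 and -0.45, adjusted p = 0.00218 and 0.0266).

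The catalytic subunits did not pass. Stt3a, which works as proteins enter the ER, was at 215, 214 and 194 CPM in the wild type and at 165, 168 and 185 CPM in the knockout (-0.27, SE 0.10, adjusted p = 0.071). Stt3b, which can also act after translation, was at 207, 207 and 200 CPM in the wild type and at 180, 186 and 174 CPM in the knockout (-0.19, SE 0.09, adjusted p = 0.137). Neither overlapped between the genotypes, and with total counts both values were above 0 (0.15 for Stt3a and 0.23 for Stt3b). With the GC trend removed Stt3a was at 0.22. Rpn1, the ribophorin I subunit, was at 355, 312 and 290 CPM in the wild type and at 343, 344 and 366 CPM in the knockout (0.14, SE 0.11, adjusted p = 0.346). Rpn2, ribophorin II, was at 233, 172 and 173 CPM in the wild type and at 235, 251 and 243 CPM in the knockout (0.34, SE 0.14, adjusted p = 0.091). Ddost, the OST48 subunit, was at 188, 147 and 150 CPM and at 194, 216 and 202 CPM (0.33, SE 0.12, adjusted p = 0.0679). Wild type 1 was the highest wild-type library for Rpn1, Rpn2 and Ddost, and without it Rpn2 and Ddost were called higher (0.48 and 0.45, adjusted p = 0.00762 and 0.0122). Dad1, a small subunit, was at 85.9 to 123 CPM in the wild type and 87.3 to 101 CPM in the knockout (-0.09, SE 0.15). Tusc3, the paralog of Magt1 that takes the same place in the STT3B form, was at 33.6, 38.0 and 46.5 CPM in the wild type and at 40.4, 40.8 and 43.4 CPM in the knockout (0.08, SE 0.14, adjusted p = 0.671).

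Per kilobase of the principal transcript, Ostc had the highest wild-type level of the 10 subunits, at 191 CPM, followed by Ost4 at 103 CPM, Rpn1 at 87.7 CPM and Ddost at 76.3 CPM. In the knockout Ostc was at 123 CPM, Rpn1 at 96.6 CPM, Ddost at 96.2 CPM, Rpn2 at 88.3 CPM and Ost4 at 58.2 CPM. Ost4 thus stood above Rpn1, Ddost and Rpn2 in wild type and below them in the knockout. Tusc3 had the lowest wild-type level, at 25.6 CPM. These levels depend on the transcript assumed for each gene.

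**Figure D3:**
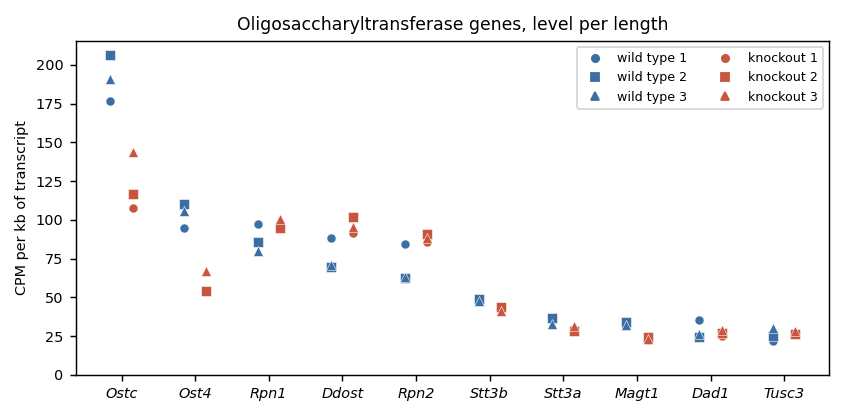
Level of the 10 oligosaccharyltransferase genes in CPM per kilobase of the principal transcript, 1 point a library, with wild type in blue and knockout in red and genes ordered by wild-type level. Ostc and Ost4 are lower in all 3 knockout libraries, while Rpn1 and Ddost are at similar or higher levels.

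Ratios within a library do not depend on how libraries are scaled, beyond the small effect of the 0.5 CPM added before taking logs. The mean log2 level of each step was therefore set against the mean of all 37 genes in the same library. The trimming and sensing genes were at -0.29, -0.37 and -0.26 in wild type 1, 2 and 3 and at 0.31, 0.33 and 0.17 in knockout 1, 2 and 3. The donor genes were at -0.17, -0.15 and -0.16 in wild type and at -0.62, -0.72 and -0.61 in the knockout. Relative to the whole set, trimming genes were thus 0.57 higher and donor genes 0.49 lower on the log2 scale (means 0.27 ± 0.09 against -0.30 ± 0.06, and -0.65 ± 0.06 against -0.16 ± 0.01). The oligosaccharyltransferase genes went from 2.0 ± 0.05 to 1.73 ± 0.06 without overlap, though 4 of the 10 had log2 fold changes above 0 in the main fit. The falls of Ost4, Ostc and Magt1 (-0.83, -0.64 and -0.49) were the largest of that step. The lumenal mannosyltransferases went from -1.64 ± 0.20 to -1.21 ± 0.09 and the genes of the cytosolic face from -1.52 ± 0.07 to -1.40 ± 0.03, both without overlap. Dolichol genes (-0.45 ± 0.07 and -0.41 ± 0.04) and lumenal glucosyltransferases (-0.49 ± 0.05 and -0.44 ± 0.01) overlapped. No test was made of these means, since the genes were chosen with results of these data known.

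**Figure D4:**
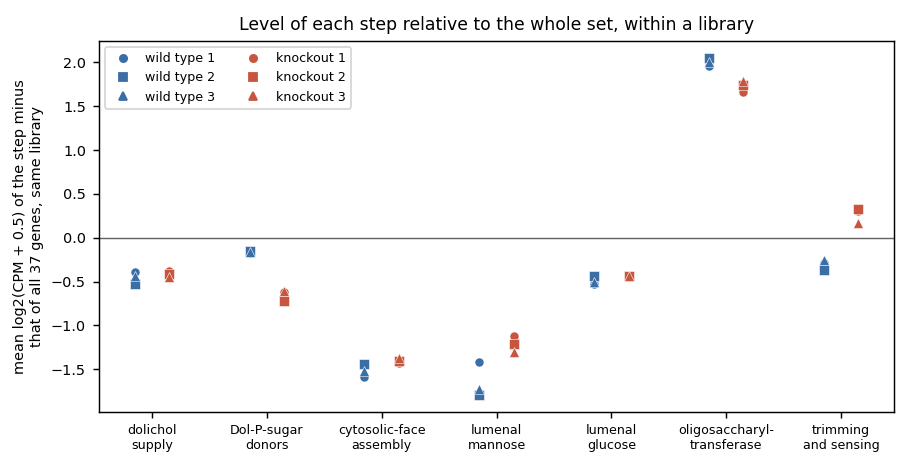
Mean log2(CPM + 0.5) of the genes of each step minus that of all 37 genes in the same library, 1 point a library, with wild type in blue and knockout in red. The donor genes lie lower and the trimming and sensing genes higher in all 3 knockout libraries.

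Partners that work as 1 enzyme or stand in for each other were compared by their log2 ratio within a library, in 7 pairs, with an exact two-sided permutation test over the libraries. With 3 against 3 the smallest p possible is 0.1, so no pair can pass 0.05, and the adjusted p over 7 pairs was 0.175 at best. The log2 ratio of Prkcsh to Ganab was -1.50, -1.71 and -1.65 in wild type and -0.82, -0.71 and -0.71 in the knockout. The beta subunit of glucosidase II thus gained 0.87 on its catalytic partner, 1.83-fold, with no overlap (exact p = 0.1, adjusted 0.175). The log2 ratio of Tusc3 to Magt1 was -2.10, -2.01 and -1.63 in wild type and -1.34, -1.44 and -1.24 in the knockout, a difference of 0.58 without overlap (exact p = 0.1, adjusted 0.175). That of Uggt1 to Uggt2 was 5.12, 5.13 and 4.37 in wild type and 5.49, 5.36 and 5.81 in the knockout, 0.68 higher without overlap (exact p = 0.1, adjusted 0.175). It rests on the few counts of Uggt2.

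The ratio of Rpn1 to Rpn2 was lower in the knockout, at 0.61, 0.85 and 0.74 in wild type and 0.54, 0.45 and 0.59 in the knockout, a difference of -0.21 without overlap (exact p = 0.1, adjusted 0.175). The gap between wild type 1 and knockout 3 was small. The ratio of Alg13 to Alg14 was -0.96, -0.57 and -1.12 in wild type and -1.41, -1.12 and -1.56 in the knockout, a difference of -0.48 with overlap (exact p = 0.2, adjusted 0.28). The ratio of Stt3a to Stt3b was 0.05, 0.05 and -0.04 in wild type and -0.12, -0.15 and 0.09 in the knockout (difference -0.08, exact p = 0.4, adjusted 0.467). The ratio of Dhdds to Nus1 was -2.74, -2.98 and -2.64 in wild type and -2.77, -2.73 and -2.54 in the knockout (difference 0.11, exact p = 0.5, adjusted 0.5). For both pairs the difference was within the spread of the libraries.

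**Figure D5:**
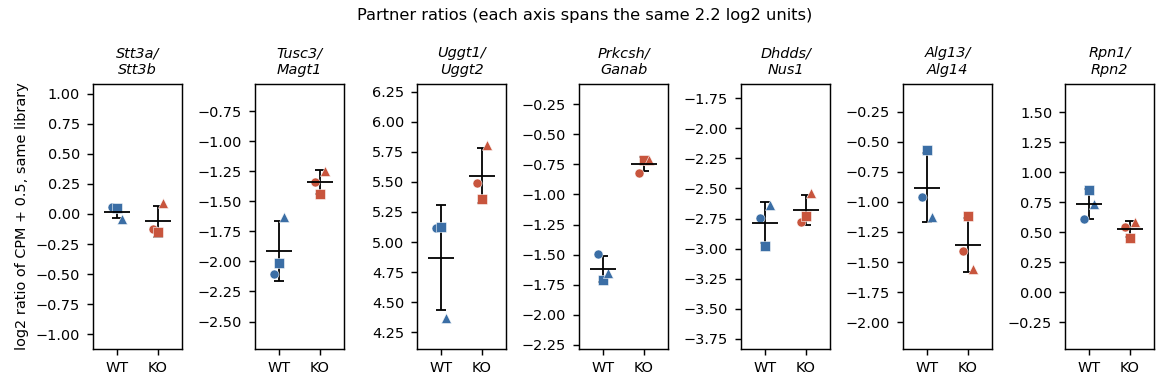
Log2 ratio of CPM + 0.5 of 7 pairs of partner genes in each library, with wild type in blue and knockout in red, and black bars for the mean and SD of 3 libraries. Prkcsh over Ganab is separated most clearly, at -1.62 ± 0.11 in wild type and -0.75 ± 0.06 in the knockout, and Stt3a over Stt3b overlaps.

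Other genes of the pathway were read from 4 lists of 45 genes, of which 44 were matched by symbol and 43 were tested. Of these 12 rose and 5 fell (39.5% called), at a background of 38.4%, and their median log2 fold change was 0.15. With total counts 30 were higher and 3 lower, at a background of 48.7% called. The number higher was 7 without wild type 2 and 6 without knockout 3, at backgrounds of 23% and 28.6%. In the list of sugar nucleotide supply, 3 of 12 rose and 2 fell, against 8 higher and 1 lower with total counts. Ugp2, which makes UDP-glucose, was at 370, 400 and 362 CPM in the wild type and at 148, 164 and 168 CPM in the knockout, a log2 fold change of -1.24 (SE 0.10, adjusted p = 3.99e-04) that was called lower under both scalings. Gfpt1, the first enzyme of the hexosamine pathway that leads to UDP-N-acetylglucosamine, was at 379, 475 and 449 CPM in the wild type and at 677, 681 and 739 CPM in the knockout (0.69, SE 0.12, adjusted p = 0.00452). Pmm1, a phosphomannomutase, was at 9.28 to 10.8 CPM in the wild type and 64.8, 26.5 and 39.6 CPM in the knockout (2.11, SE 0.32, adjusted p = 0.00334). Also called in this list were Uap1, lower (145.8 to 97.9 CPM, -0.58, SE 0.15, adjusted p = 0.0198), and Gfpt2, higher at low levels (0.188 to 1.14 CPM, 2.56, SE 0.57, adjusted p = 0.0116). With total counts Uap1 was not called (-0.16, adjusted p = 0.39). The enzymes of mannose supply Pmm2, Mpi, Gmppa and Gmppb did not pass.

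Of the 4 tested genes of precursor assembly and transfer outside the set, Tmem258, another small oligosaccharyltransferase subunit, was the only 1 called. It was at 52.5, 50.2 and 55.0 CPM in the wild type and at 25.0, 29.6 and 27.3 CPM in the knockout (-0.94, SE 0.11, adjusted p = 9.39e-04), and it was called lower with total counts too (-0.53, adjusted p = 0.00658). Krtcap2, a further small subunit, was at 35.9 to 43.1 CPM and 32.4 to 46.0 CPM (0.01, SE 0.15, adjusted p = 0.968). Krtcap2 was named after its values were seen.

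Of 14 genes of the calnexin cycle and of glycan-dependent ER-associated degradation, 6 rose and 1 fell, beside 19.3% higher and 19.2% lower of all tested genes. With total counts 12 were higher and 0 lower, beside 40.9% and 7.78% of all. Calr, the lectin chaperone calreticulin, was at 643, 629 and 549 CPM in the wild type and at 1120, 1191 and 1170 CPM in the knockout (0.93, SE 0.11, adjusted p = 0.00105). Man1b1, the ER mannosidase that marks glycoproteins for degradation, was at 50.5 to 55.6 CPM in the wild type and 80.4 to 88.4 CPM in the knockout (0.65, SE 0.09, adjusted p = 0.00222). Ngly1, the cytosolic enzyme that strips N-glycans from degraded proteins, went from 87.4 ± 2.05 to 58.1 ± 6.17 CPM (-0.59, SE 0.11, adjusted p = 0.00519), which was not called with total counts (adjusted p = 0.225) or with the GC trend removed (adjusted p = 0.358).

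Of 13 tested genes of other pathways that draw on dolichol phosphate mannose, 3 rose and 1 fell (30.8% called, at a background of 38.4%). With total counts 8 were higher and 1 lower, beside 40.9% and 7.78% of all tested genes. Pigx, a subunit of the first mannosyltransferase of GPI anchors, was at 32.0 to 36.3 CPM in the wild type and 13.5 to 17.6 CPM in the knockout (-1.12, SE 0.14, adjusted p = 0.00113), and was called lower with total counts too (-0.71, adjusted p = 0.00426). Pomt2, of protein O-mannosylation, went from 6.10 ± 0.126 to 10.5 ± 1.68 CPM (0.78, SE 0.19, adjusted p = 0.0163), and Dpy19l1, of C-mannosylation, from 6.08 ± 2.25 to 13.1 ± 1.95 CPM (1.11, SE 0.29, adjusted p = 0.0218). Both calls ended without wild type 2 (adjusted p = 0.0547 and 0.0692) or knockout 3 (0.0626 and 0.056), and that of Dpy19l1 also without knockout 2 (0.0763).

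Transcript GC content differed between genes that rose and fell, as over the whole table. The longest transcripts of the 7 genes that rose had a median GC content of 51.8% and those of the 6 that fell 45.8%, beside 52.8% and 44.9% for all called genes with a value. Once that trend was removed within each library, 12 of the 37 genes were higher and 5 lower, at a background of 34.1% called. All 7 rises and the falls of Dpm3, Ost4 and Ostc were called in that fit, and those of Dpm1, Alg5 and Magt1 were not (adjusted p = 0.248, 0.0548 and 0.981). Nus1, Alg6, Alg10b, Alg11 and Tusc3 were called higher there and not in the main fit, and Dolpp1 and Mpdu1 were called lower (adjusted p 0.0061 to 0.0401).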

How the data were processed

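The deposited table holds 1 column of estimated counts for each of the 6 libraries. Its unit was read from the values, of which 28.8% to 34.2% above 0 in a library are not whole. Per the labels' protocols, a Nucleospin kit gave the RNA and a TruSeq Stranded mRNA kit the libraries. Per the submitters' processing notes the build was mm10. Aligner, counter, annotation and use of strand: not given in the sources used here, so overlapping genes may share reads.

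Estimated counts were rounded. Ensembl identifiers, version removed, were matched to GENCODE M21 symbols (34652 of 34866; Cblif by a RefSeq synonym, Dhrsx unmatched). Genes were filtered with filterByExpr, scaled with TMM and compared with robust quasi-likelihood fits in edgeR 4.0.16 (R 4.3.3), with DESeq2 1.42.0 and limma 3.58.1 as alternatives. In simulated data the edgeR fit recovered 67 of 100 genes changed by 1 on the log2 scale and 100 of 100 changed by 2. It also called 14 unchanged genes. The simulated spread was smaller than that of the data, so recovery in the data may be lower. Ratios used CPM plus 0.5. No source says that replicates were separate animals, so the p-values may reflect technical spread alone. All members are described. Of each pathway list up to 3 called genes with the smallest adjusted p are named. Gfpt2, Uap1, Pmm2, Mpi, Gmppa, Gmppb and Krtcap2 are named beside them. Members and lists were chosen with earlier results of these data known. Sequences are from RefSeq (GRCm38.p6) and GENCODE M21.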

Additional observations from a re-analysis of the deposited data

How the results depend on the processing

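The fit was repeated under 18 other settings. Of the 234 combinations of a called gene and a setting, 207 kept direction and call, 26 lost the call and 1 changed sign. Dpagt1, Mogs, Prkcsh, Uggt1 and Ost4 kept theirs in all 18 settings. Where a value moved, the cause was not tested unless it follows from the setting, as with fewer samples or another threshold. Few counts limit what can be said of Uggt2.

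With total counts, all tested genes had 5730 higher and 1091 lower, the 37 genes 20 and 1 (median 0.52) and the wider pathway lists 30 and 3. Signs changed there for Srd5a3 (0.32), Dolpp1 (0.24), Dpm2 (0.34), Mpdu1 (0.15), Alg14 (0.29), Alg10b (0.31), Stt3a (0.15), Stt3b (0.23) and Dad1 (0.33). With the GC trend removed, 12 of the 37 genes and 19 of the pathway lists were higher, and signs changed for Alg14 (0.20), Alg10b (0.37), Stt3a (0.22) and Dad1 (0.061). At a false discovery rate of 0.01, all tested genes had 1257 higher and 1408 lower, the 37 genes 3 and 3, and 4 of the pathway lists were higher. At 0.10, 12 of the 37 genes were higher and 8 lower, beside 3460 and 3335 of all tested genes.

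Without both libraries numbered 1, 13 of the 37 genes were higher and 6 lower, beside 3394 and 3474 of all tested genes, and signs changed for Dolpp1 (0.055), Dpm2 (0.020), Alg11 (-0.14), Dad1 (0.11), Tusc3 (-0.024) and Uggt2 (-0.16). Leaving out 1 library at a time gave 1600 to 3045 higher and 1721 to 2964 lower of all tested genes, 5 to 14 higher and 3 to 7 lower of the 37 genes, and 6 to 12 higher of the pathway lists. Log2 fold changes then ran from -0.18 to 0.046 for Dpm2, -0.019 to 0.28 for Alg11, -0.18 to 0.074 for Dad1, -0.029 to 0.20 for Tusc3 and -0.056 to 0.40 for Uggt2.

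Replicate numbers matched the samples only in part, and pairing was not tested. Deviations of same-numbered libraries correlated at 0.252, 0.0907 and 0.191. Wild type 1 and wild type 2 correlated best with the knockout library of the same number, and wild type 3 with knockout 2 (0.275). With the replicate number as a block, 9 of the 37 genes were higher and 6 lower, beside 9 and 6 of the pathway lists and 2572 and 2497 of all tested genes, with a median of 0.12. The block together with the GC correction gave 11 higher of the 37 genes and a median of 0.23, with changed signs for Alg14 (0.20), Alg10b (0.36), Stt3a (0.23), Dad1 (0.085) and Magt1 (0.00161).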
